A study of Homo sapiens with 9 samples.

Results

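The cytosolic ribosomal protein genes were taken as the protein-coding genes of GENCODE release 44 on the GRCh37 (hg19) genome whose symbol is RPL or RPS plus a number, with or without letters, or RPLP0, RPLP1, RPLP2 or RPSA. Kinases of the RPS6K family and pseudogenes were left out. The rule found 87 of 20162 protein-coding genes, 53 for the large and 34 for the small ribosomal subunit. Of the 87, 77 were the core genes (46 large, 31 small) and 10 were paralogs (RPL3L, RPL7L1, RPL10L, RPL22L1, RPL26L1, RPL36AL, RPL39L, RPS4Y1, RPS4Y2 and RPS27L). FAU, which encodes a ribosomal protein fused to a ubiquitin-like protein, fell outside the symbol rule.

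The data were small RNA sequencing of K562, a human cell line established from chronic myelogenous leukemia with erythroid features, grown without any treatment. RNA of 20 to 40 nt was selected. Reads of 3 batches of cells, labelled as biological replicates, were pooled by the authors into 1 table of alignments, so no value below has a replicate error, and differences between genes or regions were described without a test. The 6 HEK293 samples of the study were not analysed here.

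A ribosomal protein is made in the cytoplasm, imported into the nucleolus and built there into a subunit together with ribosomal RNA. The messages of these genes typically open with a cytosine followed by a run of pyrimidines, the 5′ terminal oligopyrimidine (5′ TOP) motif, through which their translation follows growth signals. Many of these genes also carry small nucleolar RNAs (snoRNAs) in their introns, which guide chemical modification of ribosomal RNA, and many have processed pseudogenes elsewhere in the genome.

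The small RNAs of these genes fell into 3 kinds, and the sequences that show each kind are printed 5′ to 3′ from the GRCh37 reference at the ends of the deposited alignments. The first set shows the most abundant species at the ends of introns of the representative transcripts. Capitals mark CTNAC, letters found at many human branch points (the A is the base that joins the intron lariat). These species lie at chr4:109543237-109543261 (plus strand), chr9:127622543-127622567 (minus strand) and chr9:130213084-130213109 (minus strand).
RPL34 intron 2: cctaCTGACtgtttcactttctagg
RPL35 intron 2: ttcaCTGACatctctgttttgtagc
RPL12 intron 1: agacaCTAACtcttcttttcccccag

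The second set shows a species of RPLP0 that sits across a splice acceptor in another way. It also shows a species of RPL22L1 at an acceptor that the representative transcript does not use. Capitals mark bases of an exon of the representative transcript. The RPLP0 species is at chr12:120636525-120636545 (minus strand), and the RPL22L1 species, at chr3:170585989-170586012 (minus strand), holds no exon base of that transcript.
RPLP0 exon 6: cagAGTGATGTGCAGCTGATC
RPL22L1 intron 2: ataacctaagctctattcctaggg

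The third set shows the start of 2 snoRNAs that lie on annotated exons of these genes, at chr1:93302847-93302874 (plus strand) and chr19:49993873-49993891 (plus strand). Capitals mark TGATGA, the letters of the box C of this class of snoRNA.
SNORD21 in RPL5: ctgaaTGATGAtatcccactaactgagc
SNORD33 in RPL13A: cggccggTGATGAgaactt

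The fourth set shows species that begin at the 5′ end of a message, with the leading pyrimidine run in capitals. They lie at chr12:120638888-120638911 (minus strand), chr1:153963242-153963259 (plus strand), chr19:49990866-49990891 (plus strand) and chr2:101618752-101618777 (plus strand).
RPLP0 start: TCTCTCgccaggcgtcctcgtgga
RPS27 start: TCCggcggtgacgaccta
RPL13A start: TTTTCCaagcggctgccgaagatggc
RPL31 start: TTCCTTTCCaacttggacgctgcaga

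The fifth set shows the leading species wholly inside an exon for 3 small subunit genes and 1 large subunit gene, all bases being exon bases and therefore in capitals. The codon named is that of the middle base of the species. They lie at chr19:39924348-39924366 (minus strand), chr20:60962952-60962970 (plus strand), chr19:42364853-42364871 (plus strand) and chrX:118920543-118920563 (minus strand).
RPS16 codon 65: ATTTGCTGGTGTAGACATC
RPS21 codon 59: CGGGGCCATTCGTAGGATG
RPS19 codon 6: AGTTACTGTAAAAGACGTG
RPL39 3′ UTR: CTATCTGGAGATTTCGACGTG

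The deposited table listed 3688019 alignments of 10 to 42 nt, of which those of 18 nt or longer were used here. From the values alone, the deposited read number of an alignment was taken to be the product of its own reads and the number of listed alignments with almost the same ends. No source used here states this. With the deposited numbers in its place, the median reads per kb of joined exon given below goes from 35.6 to 95.4 and the number of spread genes from 28 to 5. Division gave 47670688 recovered reads in all, and every number below is in recovered reads unless said otherwise. Wilson 95% intervals, given in parentheses, cover counting error only, since the reads carried no molecular identifiers. As a check of the label, the 13 erythroid genes had a median of 21.1 reads per kb wholly inside their exons, led by the globin genes HBG2 with 466 and HBG1 with 450 reads per kb. The fibroblast genes had 8 such reads, the lymphoid genes 1 and the hepatic gene ALB 0.

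On the sense strand of the joined exons of all annotated transcripts, the ribosomal protein genes held 85138 reads, 0.179% of all recovered reads. The recovered reads include those of alignments too short to be used here, and the 85138 reads do not. The share among reads of the length used is therefore higher, and it is not given. The median gene had 35.6 reads per kb of joined exon (quartiles 19.03 and 99.6), beside a median of 1.27 over all protein-coding genes. At least 10 reads were found on 84 of the 87 genes (96.6%), where the share over all protein-coding genes was 43.2%. The core genes had a median of 40.4 and the paralogs of 8.10 reads per kb. The large subunit core genes, at 38.4, and the small subunit core genes, at 44.3, had wide and overlapping quartile ranges (22.6 to 128 and 22.8 to 90.0). Their order turned with a minimum length of 20 nt (31.9 and 28.8) and with alignments of 1 exact genome match (29.3 and 27.3).

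Reads on snoRNA genes made up most of this total. Of the 85138 reads, 69340 (81.4%, 81.2 to 81.7) overlapped an annotated snoRNA gene that lies on an exon of at least 1 transcript, such as one that keeps the intron. A further 6360 reads (7.47%) lay wholly inside exons of the representative transcript, 6249 (7.34%) crossed a boundary of such an exon, and 3189 (3.75%) touched exons of other transcripts only. Over all protein-coding genes, the share on small RNA genes was 92.1%.

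**Figure D1:**
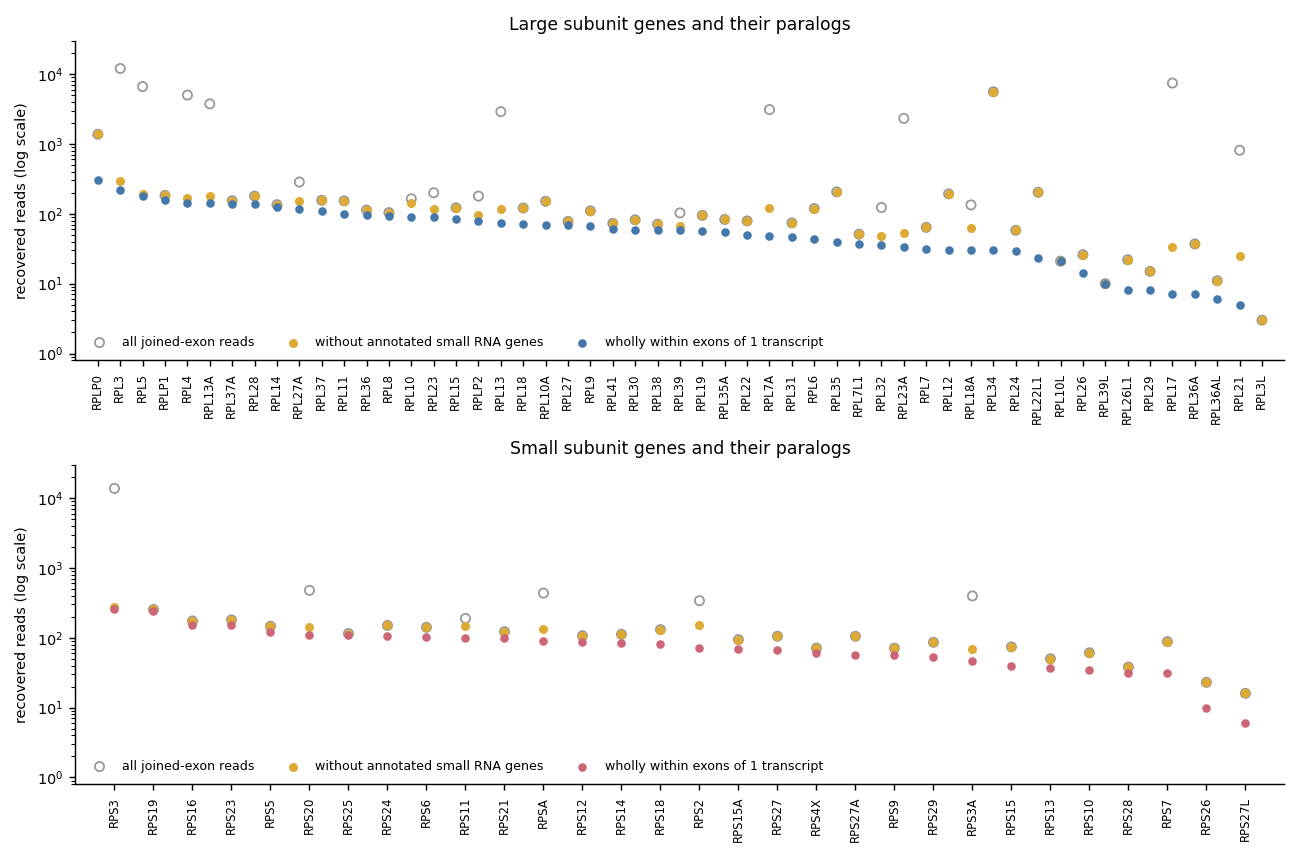
Recovered reads of each ribosomal protein gene (log scale) on joined exons and in the narrower read sets, with large subunit genes in one panel and small subunit genes in the other, with the Y-linked paralogs and a few other genes left out. A few snoRNA host genes such as RPS3 (13727 reads) and RPL3 (12021) stand far above the rest on joined exons, while RPLP0 has 300 reads and RPS21 99 reads wholly inside exons.

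The 10 genes with most reads per kb of joined exon included RPL17 (3033), RPL3 (2552), RPS3 (2343), RPL5 (1796), RPL34 (1591), RPL7A (1387), RPL13A (1160), RPL23A (1040) and RPL4 (892). Apart from RPL34, each of those named was a snoRNA host with most of its reads on snoRNA genes. In RPL17, 7400 of 7434 reads were on snoRNA genes, and in RPS3 13452 of 13727. In RPL34, which encodes a large subunit protein, no read was on a small RNA gene.

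Small RNA genes were annotated on joined exons of 25 ribosomal protein genes and had reads in 23 of them, 16 large and 7 small subunit genes. All 43 small RNA genes with reads were snoRNAs. Among the most abundant were SNORD15A in RPS3 with 13452 reads, SNORD43 in RPL3 with 10575, SNORD21 in RPL5 with 6432 and SNORD58C in RPL17 with 5700. In the pooled reads, the pieces came mostly from the ends of the snoRNAs rather than from their middle. Of the 69340 reads, 72.7% had their 5′ end within 5 nt of the annotated snoRNA start and 23.8% had their 3′ end within 5 nt of its end. Among the 29 snoRNA genes with at least 100 reads, 22 had at least 50% of their reads at the start and 6 had at least 50% at the end, though a few of these were near an even split. SNORD33 in RPL13A gave start pieces in 99.2% of 2976 reads. SNORD18C in RPL4 went the other way, with 92.2% of 2017 reads at its 3′ end, and so did its neighbour SNORD18A in the same gene, with 92.8% of 1463. SNORD43 was split, with 50.9% at the start and 48.4% at the end. SNORD24 in RPL7A was an exception, with 42.8% of 832 reads at the start and 15.9% at the end. The start pieces printed above each contain the box C letters.

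Reads across the boundaries of exons formed the second kind. Of the 12609 reads that touched exons of the representative transcripts and no small RNA gene, 49.6% crossed an exon boundary, against 8.95% over all protein-coding genes. Without RPL34, the share was 24.3%. RPLP0 still weighed heavily on this share, with 1277 reads touching exons and 300 wholly inside them. To describe the reads across boundaries, reads whose 3′ end lay within 2 nt of a splice acceptor were counted for each intron. This measure was chosen after the data were seen. The ribosomal protein genes had 6072 such intron-end reads, in introns of 63 genes.

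RPL34 led this class. Its intron 2, of 80 nt, ended in 5372 reads, the most of any of the 189919 introns of protein-coding genes and 88.5% of the ribosomal protein total. The leading species, printed above, had 2400 reads and a deposited RPKM of 39009.5, a value that rests on the deposited count before division. It began 24 nt before the exon and ended with the first exon base, and 4203 of the 5372 reads reached into the exon. The second intron of RPL35 followed with 237 reads (rank 9 of all introns) and the first intron of RPL12 with 119 (rank 19). Both genes encode large subunit proteins. Intron 5 of RPL10A had 33 reads and intron 3 of RPS27 had 27, and the other introns with at least 10 reads included RPL7A intron 1 (12) and RPS19 intron 4 (11). In all, 8 of 390 introns had at least 10 reads, 2.05%, where the share over all introns was 0.142%. At least 1 intron-end read was seen in 29.2% of the introns of ribosomal protein genes and in 3.36% of all introns. The level of the host gene was not matched between these shares.

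**Figure D2:**
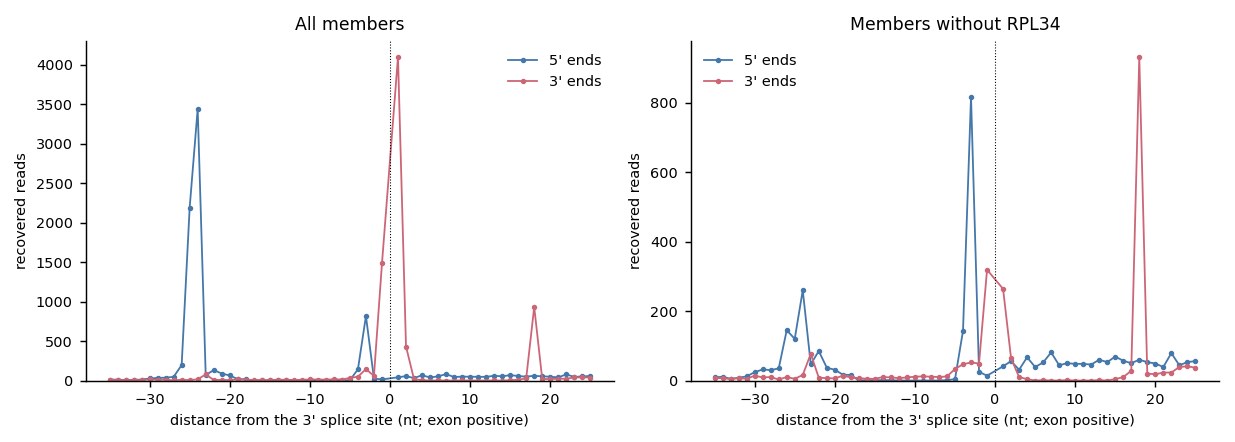
Recovered reads by the distance of their 5′ and 3′ ends from the splice acceptor (nt, exon positive), over introns of all ribosomal protein genes and without RPL34. With RPL34, 5′ ends pile up 24 nt before the exon (3443 reads) and 3′ ends at the first exon base (4100 reads). Without it, the tallest 5′ peak is 3 nt before the exon (817 reads) and the tallest 3′ peak 18 nt into it (932 reads), where the RPLP0 species begins and ends.

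The leading intron-end species of RPL34, RPL35 and RPL7A each held CTGAC with the A at position 8 from their 5′ end, and that of RPL12 held CTAAC with the A at position 9. CTNAC was present in the last 30 intron bases of 12 of the 23 ribosomal protein introns with at least 5 intron-end reads (52.2%), of 23.3% of all their introns and of 16.9% of all introns of protein-coding genes, searched on the transcript strand. The RPL10A and RPS27 species had no such match.

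RPLP0 had reads across an acceptor with a different layout, and RPL22L1 had reads at an acceptor outside its representative transcript. RPLP0, the central protein of the ribosomal P-stalk that recruits translation factors, had 811 reads that began 3 nt before exon 6 and 140 that began 4 nt before it, most ending 18 nt into the exon. The leading species had 786 reads, and together with alignments whose ends lay within 3 nt in total of its own it gave a top peak of 69.3% of the 1374 reads of the gene. RPL22L1, a paralog of RPL22, had 175 intron-end reads at an acceptor used by its annotated nonsense-mediated decay transcripts, inside intron 2 and 67 nt from the acceptor of that intron. Of these, the 156 that overlapped its joined exons made up 76.8% (70.6 to 82.1) of the 203 reads there. The leading RPL22L1 species, with 43 reads, began 22 nt before that acceptor and ended 2 nt past it, a layout like that of the intron-end species above. Of the other annotated acceptors of these genes, 18 had a read with its 3′ end within 2 nt, and RPL22L1 was the 1 with at least 10. Some of these acceptors, as in RPL27A and RPL7A, lie inside exons of the representative transcript, where such reads can be pieces of an exon. The number of acceptors searched and a share over all protein-coding genes are not given.

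Genes were then sorted by how far their reads gathered in 1 place. A gene with at least 50 reads was called single-peak where at least 50% of its reads had ends within 3 nt in total of its most abundant alignment, and spread where under 10% did. On joined exons, 74 ribosomal protein genes had enough reads, of which 11 were single-peak (14.9%), 35 between and 28 spread (37.8%). Over all protein-coding genes of that depth, 17.5% were single-peak and 45.0% spread, so neither share of the ribosomal protein genes was far from the background. Large subunit genes had 9 single-peak and 14 spread genes of 45, and small subunit genes 2 and 14 of 29. The highest top peak shares were those of RPL34 (96.3%), RPS3 (85.4%), RPL35 (69.4%), RPLP0 (69.3%) and RPL13 (68.4%). RPS3 and RPL13 owed theirs to a snoRNA, and RPL34, RPL35 and RPLP0 to a species at a splice acceptor. The lowest were those of RPL8 (2.88%), RPL10 (3.05%), RPL19 (3.16%), RPL37 (3.21%) and RPLP1 (3.28%).

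Once snoRNA reads were removed, 4 of 71 genes stayed single-peak (background 15.7%), namely RPL34, RPL35, RPLP0 and RPL12, and 40 were spread (background 47.6%). Among reads wholly inside exons, none of 53 genes was single-peak (background 12.8%) and 28 were spread (background 54.2%). The most gathered was RPL39 with 43.1% of 58 reads in the top peak, and RPL27 had 27.9% of 68. The leading species of RPL39 had 15 reads and matched 2 places in the genome, and 1 of the 58 reads of this gene matched a single place.

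**Figure D3:**
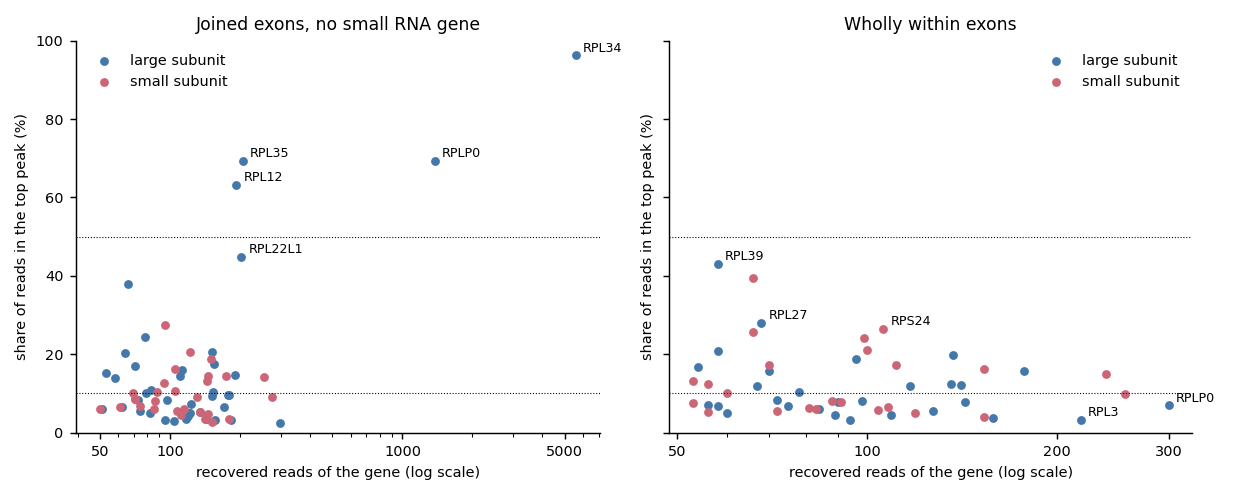
Share of a gene's reads in its top peak (%) against its recovered reads (log scale), for large and small subunit genes with at least 50 reads, outside snoRNA genes and wholly inside exons. Dotted lines mark 50% and 10%. RPL34, RPL35, RPLP0 and RPL12 lie above 50% in the first panel, and no gene does in the second, where RPL39 is highest at 43.1%.

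Fragments wholly inside exons and off small RNA genes formed the third kind. The median gene had 54.1 such reads per kb of its representative transcript, beside 1.27 over all protein-coding genes, and 77 of 87 genes (88.5%) had at least 10 reads, where the background was 36.6%. The core genes had a median of 70.2 reads per kb, 49.2 for the large and 79.8 for the small subunit. The quartile ranges of the subunits overlapped (32.5 to 97.2 and 56.0 to 175). RPS21 led with 277 reads per kb (99 reads), followed by RPLP0 with 271 (300 reads), RPS16 with 242 (153 reads), RPS25 with 224 (108 reads) and RPS20 with 214 (111 reads). RPL17, at 3033 reads per kb on joined exons, had 7 reads inside exons. Across the 77 core genes the order by joined exons and the order by reads inside exons had a Spearman correlation of 0.42, both counts coming from the same pooled library.

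The P-stalk and other late joining proteins, which bind the large subunit near the end of its assembly, ranged from RPL10 with 41.6 to RPLP0 with 271 reads per kb inside exons, with a median of 135. RPLP2 had 169 and RPLP1 135. A list of 11 genes mutated in Diamond-Blackfan anaemia, a congenital failure of red cell production, was used, which need not hold every such gene. These 11 had a median of 57.8, below the 70.2 of the core genes, to which they all belong. Among them, RPS24 (199) and RPL5 (172) were highest, RPS19 had 118, RPL11 96.4, RPS10 57.8, RPL35A 43.8, RPS7 42.3, RPL15 38.98 and RPL26 26.5, and RPS26, with 10 reads, was lowest at 8.77. The fusion gene FAU had 31 reads, 61.3 per kb.

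The paralogs were low. Their median was 8.55 reads per kb inside exons, and none was above RPL10L, an intronless copy of RPL10, with 27.2 (21 reads). Of these 21 reads, 2 matched a single place in the genome. RPL22L1 had 12.1 reads per kb, and RPL3L, a striated muscle paralog of RPL3, and RPS4Y1 had no read on exons of the representative transcript. A count of 0 allows up to 3 reads at this depth, where RPL3 itself had 218 inside exons.

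The medians of 3 other gene groups were lower inside exons, while single genes of them were not. The messages of 18 other 5′ TOP genes, such as the elongation factor EEF2 with 181 and the ribosome-bound scaffold RACK1 with 243 reads per kb, had a median of 35.1. The 78 mitochondrial ribosomal protein genes, which serve the separate ribosome of that organelle, had a median of 14.9, and the ribosome biogenesis genes one of 10.4. All these are medians over genes of 1 pooled library and were not tested.

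Within the message, reads favoured the 5′ UTR and the coding sequence (CDS) over the 3′ UTR. Placed by their middle base on the representative transcript, 7682 reads fell 14.7% (13.9 to 15.5) in the 5′ UTR, 74.7% (73.7 to 75.7) in the CDS and 10.6% (9.95 to 11.3) in the 3′ UTR. These elements made up 4.46%, 37.7% and 57.8% of the transcript length, in which a few annotated 3′ UTRs of several kilobases weigh heavily. A further 4927 reads, 4728 of them on large subunit genes, had their middle base outside the exons. Most of these came from RPL34, which had 4248 reads touching exons of its representative transcript and 30 wholly inside them. Over all protein-coding genes, the shares of reads were 17.6%, 54.4% and 28.1%, at length shares of 5.44%, 47.1% and 47.4%. Per kb, reads wholly inside exons stood at 177 in the 5′ UTR, 102 in the CDS and 11.6 in the 3′ UTR of the ribosomal protein genes, and at 15.3, 5.57 and 2.96 over all coding genes.

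**Figure D4:**
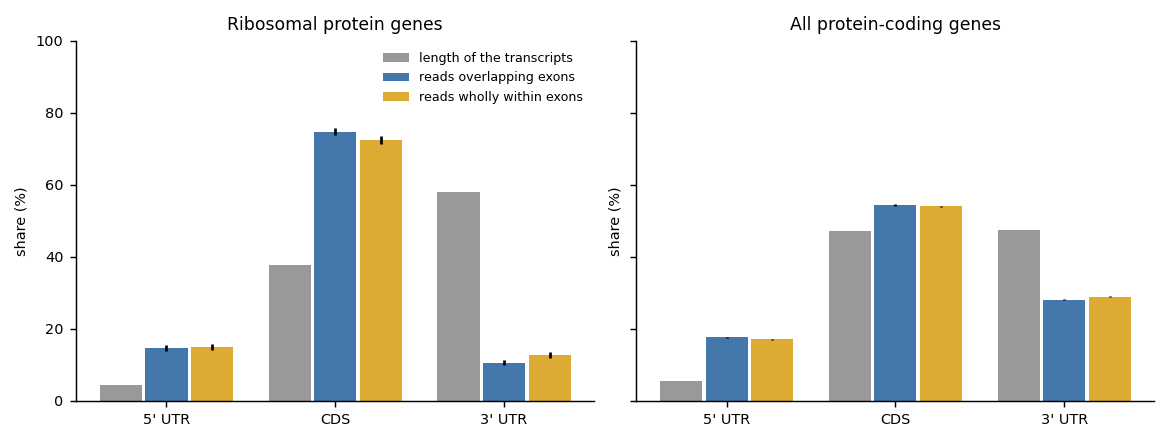
Share (%) of recovered reads in the 5′ UTR, CDS and 3′ UTR, for reads overlapping exons and for those wholly within them, beside the share of transcript length, with 95% Wilson intervals as error bars, for the ribosomal protein genes and all protein-coding genes. In the ribosomal protein genes the CDS holds 74.7% of reads on 37.7% of the length, and the 3′ UTR 10.6% of reads on 57.8% of the length.

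By middle base, the CDS held 74.6% (73.3 to 75.8) of large and 74.99% (73.4 to 76.6) of small subunit reads. Among reads wholly inside exons, the CDS held 69.5% (68.0 to 70.98) of large and 76.3% (74.6 to 77.8) of small subunit reads. These intervals cover counting error only and not the spread between genes, and the difference was not tested. By middle base, the 3′ UTR held 11.9% (10.98 to 12.8) of large and 8.49% (7.52 to 9.58) of small subunit reads, and it made up 61.3% and 50.7% of their lengths. Single genes went far from these shares. RPL39 had 47 of its 58 reads inside exons in its 3′ UTR, where the species printed above lies. Of these 58 reads, 1 matched a single place in the genome, so they cannot be told apart from reads of its copies. RPS27 had 56 of 66, RPS20 67 of 111 and RPS25 60 of 108 in the 5′ UTR. RPS19, mutated in Diamond-Blackfan anaemia, had 225 of 239 in the CDS, and RPS16 139 of 153. RPL41, whose coding sequence is 78 nt long, had 26 reads in the 5′ UTR, 34 in the 3′ UTR and none placed in the CDS.

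Along the CDS, the coverage of the ribosomal protein genes was uneven but not confined to an end. Each CDS was cut into 10 equal parts. Of 4471 CDS reads, part 2 held most (14.2%), part 7 held 12.7% and part 10 least (5.84%). In the mean over the 35 genes with at least 50 CDS reads, part 2 held 16.4% and part 1 held 8.96%. The mean over 390 other genes of that depth had most reads in part 1 (17.3%). Pooled over the reads of all other coding genes, part 4 held 28.6%, beside 9.05% in that mean. The 5′ ends of CDS reads lay at codon positions 1, 2 and 3 in 35.5%, 33.5% and the remaining share of cases. In the other coding genes, the shares by reads were 29.1%, 50.1% and 20.8%, while counting each distinct alignment once gave 35.7%, 35.5% and 28.8%, beside 35.8%, 33.5% and 30.7% for the ribosomal protein genes.

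At the 5′ end of the message, 180 of 12609 reads (1.43%, 1.23 to 1.65) began within 5 nt of the annotated transcript start, the position of the 5′ TOP motif. Without RPL34, which held 4248 of the 12609 reads and 7 of the start reads, the share was 2.07% (1.79 to 2.40). It was 1.27% over all protein-coding genes and 1.47% in the mitochondrial ribosomal protein genes. The other 5′ TOP genes had 9 such reads of 3031 (0.297%, 0.156 to 0.563). Of the 64 ribosomal protein genes with at least 50 of these reads, 35 (54.7%) had a read at the start, where the background was 31.2%. RPS27, a small subunit protein with a zinc finger, was highest with 26 of 97 reads (26.8%), followed by RPL13 with 9 (10.2%), RPL31 with 6 (9.68%), RPL18 with 8 (8.89%) and RPL13A with 12 (7.55%). RPLP0 had the most start reads, 27 of 1277. Start reads of most genes were few, so their shares have wide counting errors.

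The sequences at these positions were mostly pyrimidines. Annotated starts opened with C in 65 of the 87 genes, and 60 had a pyrimidine run of at least 5. Among the 20 genes with at least 3 start reads, the most used position opened with C or T in 19, with C in 8, and with a pyrimidine run of at least 5 in 13, the median run being 6. None of these counts has a share over all protein-coding genes beside it, so they do not set this family apart. In the starts printed above, RPLP0 reads most often began 3 nt and RPS27 reads 4 nt after the annotated start, and both opened with T. RPL3 was the 1 gene of the 20 that opened with a purine.

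Reads at the other end of the message were rare. In total, 26 of 12609 reads (0.206%) ended within 5 nt of the annotated transcript end, beside 0.213% over all coding genes. The 12609 reads hold 4248 of RPL34, mostly its intron-end reads, of which 0 ended there, so this share is lowered by 1 gene. Of the 64 genes, 8 (12.5%) had such a read, where the background was 8.50%. RPL18 had 6 (6.67%) and RPL5, a protein of the 5S ribonucleoprotein, 10 (5.56%), and RPS12 and RPS15 had 2 and 1.

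Reads inside exons of the ribosomal protein genes were slightly longer than those of other coding genes. Their median was 21 nt (quartiles 19 and 24) against 20 nt (18 and 23), and 28.3% were of 18 to 19 nt against 47.0%. Over all protein-coding genes, however, 41394 5′ ends lay at the first exon base after an acceptor and 41871 3′ ends at base 18 of the exon. Both counts stand far above those at neighbouring positions. Such a pile of reads weighs on the lengths and on the other read-based shares of the other coding genes. Their 3′ ends were often at the bases TG, a feature that was noticed in the data and then measured. Of CDS reads, 23.7% of 4471 ended in TG, where TG made up 7.65% of CDS positions. In the other coding genes, 13.5% of CDS reads ended in TG at 7.74% of positions. Counted as distinct alignments inside exons, the shares were 18.8% and 16.9%. By gene, the share was taken over all reads inside exons, UTRs included. It was above the 7.65% of CDS positions in 52 of 53 genes with at least 50 reads, with a median of 21.3%. The positions of the UTRs are not in that background. The count by gene was not made for other coding genes, so it does not set the ribosomal protein genes apart. RPS21 (42.4%) and RPL39 (39.7%) were highest, and RPL35A, at 1.85%, was the exception. The leading species of RPS21, RPL39 and RPS19 printed above all end in TG, and that of RPS16 ends in TC.

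**Figure D5:**
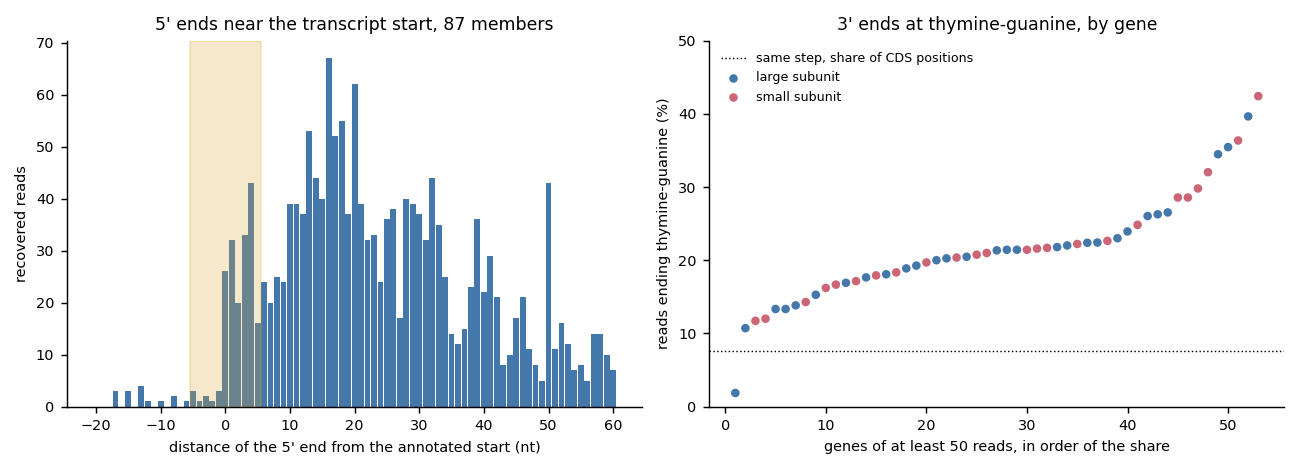
Read ends in the ribosomal protein genes, with 5′ ends by distance from the annotated transcript start (nt) in one panel and the share (%) of each gene's reads inside exons that end in thymine-guanine in the other. The 5′ ends are most frequent 16 nt after the start (67 reads). In the second panel, 52 of 53 genes lie above the share of such positions in the CDS, a count not made for other coding genes.

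Antisense reads were few. Inside exons, 195 antisense reads stood beside 6360 sense reads, 2.97% of both (2.59 to 3.41), where the share over all coding genes was 14.6%. RPL4 had 86 of them and RPL27A 31.

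Copies of these genes elsewhere in the genome limit what a read can be assigned to. Of all 20-nt windows of their exons, 52.2% matched a single place in the genome (73.4% in the 5′ UTR, 22.8% in the CDS and 67.7% in the 3′ UTR), against 86.8% in a random sample of coding genes, where the CDS stood at 89.5%. In 14 of the genes under 10% of windows were unique, among them RPL21 with none and RPS3A with 0.662%, while RPL28 reached 83.2%. Of the 6360 reads inside exons, 3499 (55.0%) matched a single place. The other 2861 had exact copies that together listed 5007 reads, 57.1% of them at the ribosomal protein gene. RPS27A had no read with a single match among 56 reads, so its own reads cannot be told apart from those of its copies. Over the 77 core genes, reads per kb inside exons and the share of unique windows had a Spearman correlation of -0.15. Restricted to reads and windows with a single match, reads per kb of window were 281 in the 5′ UTR, 249 in the CDS and 11.1 in the 3′ UTR.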

How the data were processed

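Small RNA of 20 to 40 nt from 3 batches of K562 cells was sequenced with reads of 50 nt. The authors aligned the reads to hg19 (GRCh37) with Bowtie2 2.2.9 and pooled the batches. The deposited table gives for each alignment a count of reads and an RPKM value, in which the authors scaled that count by alignment length and by 54140681 reads. It has no columns of single batches, so no comparison between samples was possible. The deposited count was a whole multiple of the number of alignments on the same strand with ends shifted by at most 3 nt in total for 1246133 of 1246133 alignments with such a neighbour, and was divided by it, a reading inferred from the values, turning 718601614 deposited into 47670688 recovered reads. The methods say that uniquely mapped reads were kept, but many listed alignments match several places exactly.

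Alignments of 18 nt or longer were joined to GENCODE release 44 on GRCh37, with the transcript tagged canonical as the representative. Python 3.11.15, numpy 2.4.6, pandas 2.3.3, scipy 1.17.1, numba 0.67.0 and pysam 0.24.0 were used, and the steps were tested on simulated alignments. The members and the gene lists were chosen with earlier results of these data known. Named genes were the 10 with most reads per kb, the 5 with the highest and lowest top peak share and the 5 with the highest start and end share among genes of at least 50 reads, the Diamond-Blackfan anaemia genes and members with no read. Other genes were named after their values were seen. Reads inside exons, intron ends, the acceptors of RPLP0 and RPL22L1 and the ends at TG were added after the data were seen. Depth limits single genes, since most had under 100 reads inside exons. A few genes that the rules would name are not reported here.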

Additional observations from a re-analysis of the deposited data

How the results depend on the processing

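Of 71 alternative settings, 21 left a value within its counting interval or, for a count of genes, within 1.5 times the main count, and 50 moved it. No paired analysis was possible because the deposited columns pool the batches and carry no replicate number, so no batch was left out. The cause of each move was not tested unless the setting itself fixes it.

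The median reads per kb of all, core large and core small subunit genes (35.6, 38.4 and 44.3) became 95.4, 112 and 134 with the deposited reads, 74.0, 58.4 and 118 on representative exons, 26.8, 27.5 and 30.6 without small RNA genes and 25.9, 29.3 and 27.3 with 1 exact genome match. For all and for core small subunit genes it became 26.6 and 28.8 with a minimum of 20 nt and 43.5 and 58.9 with no minimum length. The small subunit median was below that of the large subunit with a minimum of 20 nt (large 31.9) and with 1 exact match, so their order depended on the setting.

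The 5′ UTR and CDS shares (14.7% and 74.7%) became 12.7% and 81.9% with the deposited reads, 12.3% and 76.9% from 20 nt, 20.4% and 69.4% by the 5′ end, 12.1% and 76.1% as medians over genes, 17.01% and 70.3% without RPLP0 and 19.9% and 69.1% with 1 exact match, and the CDS share 72.4% wholly inside exons. The 3′ UTR share (10.6%) became 5.497% with the deposited reads, 6.43% as a median over genes, 12.7% without RPLP0 and 12.7% wholly inside exons. The start share (1.43%) became 0.206% at the exact base, 2.51% within 10 nt, 6.78% at the start of any transcript and 2.07% without RPL34.

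Single-peak genes (11) became 2 with identical ends, 4 without small RNA genes and 0 wholly inside exons, and spread genes (28) became 47 with identical ends, 17 at 100 reads and 5 with the deposited reads. The share of 5′ ends at codon position 1 (35.5%) became 31.9% with 1 exact match, CDS reads ending in TG (23.7%) became 20.2% as distinct alignments, and unique windows (52.2%) became 51.9% without the paralogs. Introns with at least 10 intron-end reads (8) became 5 within 1 nt, 23 at 5 reads, 5 at 20 reads and 22 with the deposited reads. Settings on 1 exact match or wholly inside exons for the shares, on the frame, the ends in TG, the paralogs and the intron ends, and without RPL34, were chosen after seeing the data.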
